A study of Mus musculus with 6 samples.

Results

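The genes described here encode 10 initiation and accessory factors of RNA polymerase I (Pol I). They were taken as a list of names, and all 10 were found among the 54838 genes of the deposited table, which has them under identifiers that the annotation still pairs with the older symbols Cd3eap, Znrd1 and Twistnb (now also called Polr1g, Polr1h and Polr1f). RNA was sequenced from I1DN cells, a mouse acute myeloid leukemia made by transducing fetal liver progenitors with IDH1R132H, DNMT3AR882H and NrasG12D on a C57BL/6 background. The cells came from established leukemia and were carried in sub-lethally irradiated Ptprca recipients, so that all mice of both groups share these 3 alleles and the same origin, and they stand for 1 model. The Vehicle group (3 mice) received no AG636, and the AG636 group (3 mice) received AG636 b.i.d. by oral gavage at 100 mg/kg. AG636 inhibits dihydroorotate dehydrogenase, an enzyme of de novo pyrimidine synthesis. Cells were sorted from bone marrow and spleen after 1 day of treatment. The study's results text gives the gate for I1DN as cKit+CD11b-, whereas its general methods for RNA describe sorted AML cells as high in cKit and low in CD11b. The comparison asks how these genes were expressed in leukemia cells when pyrimidine synthesis was inhibited.

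Pol I transcribes the rDNA repeats in the nucleolus and makes the precursor of the large ribosomal RNAs, a main user of the nucleotides of a growing cell. At the rDNA promoter, upstream binding factor (Ubtf) and the selectivity complex SL1 (also TIF-IB, made of the TATA-binding protein with Taf1a, Taf1b, Taf1c and Taf1d) prepare the start site. Rrn3 (TIF-IA) bridges SL1 to the polymerase that is competent to initiate, and it is a known point of control by growth and nutrient signals. Cd3eap, Znrd1 and Twistnb are subunits that associate with the polymerase itself, and Ttf1 binds terminator sequences at the rDNA.

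The sequences below are the 250 bases before the RefSeq start sites (GRCm38.p6) of Cd3eap and Taf1d, the members with the largest decreases, and of Rrn3, which shares with Cd3eap a motif that no other member had in its windows. Each is printed 5′ to 3′ on the strand of the gene, and capitals mark whole matches within the printed bases to an E-box (CACGTG), the core that Myc and related factors recognise, or to an ETS-like motif (CCGGAAG, read as CTTCCGG on the other strand). Cd3eap lies on the minus strand at chr7:19359484-19359733, Rrn3 on the plus strand at chr16:13780449-13780698, and Taf1d on the plus strand at chr9:15305964-15306213.
Cd3eap: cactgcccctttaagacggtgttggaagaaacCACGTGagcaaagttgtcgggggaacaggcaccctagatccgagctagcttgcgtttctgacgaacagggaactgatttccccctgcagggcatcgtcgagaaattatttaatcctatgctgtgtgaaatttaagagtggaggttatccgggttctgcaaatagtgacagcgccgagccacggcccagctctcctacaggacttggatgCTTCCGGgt
Rrn3: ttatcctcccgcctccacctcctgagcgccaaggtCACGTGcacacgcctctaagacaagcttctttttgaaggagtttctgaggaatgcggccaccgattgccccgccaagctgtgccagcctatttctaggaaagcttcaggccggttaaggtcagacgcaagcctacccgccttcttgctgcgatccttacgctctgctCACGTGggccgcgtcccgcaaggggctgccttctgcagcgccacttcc
Taf1d: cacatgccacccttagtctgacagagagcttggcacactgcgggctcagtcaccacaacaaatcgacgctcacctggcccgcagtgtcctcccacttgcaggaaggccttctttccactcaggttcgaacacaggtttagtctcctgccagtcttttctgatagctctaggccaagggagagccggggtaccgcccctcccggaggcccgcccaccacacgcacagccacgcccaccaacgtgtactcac

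RefSeq windows of 300 bases, from 250 before to 50 after a start site, matched all 10 members. An E-box was found in a window of 2 of the 10 members, Cd3eap and Rrn3, against 12.3% of the 8424 tested genes with a window and 7.15% of all 32851 windows. In the Cd3eap sequence it began 218 bases before the start site, and the Rrn3 sequence held it 215 and 48 bases before the start site. The Cd3eap window held another E-box 21 bases after the start site, outside the printed bases. The ETS-like motif was found in 6 members (Cd3eap, Rrn3, Taf1a, Taf1b, Taf1c and Ttf1), against 22.6% of the tested genes and 8.86% of all windows. In Rrn3 it began 5 bases before and 19 bases after the start site, so neither match lies whole in the printed bases. A YY1-like motif (GCCATNTT) was in a window of 0 of the 10 members, against 11% of the tested genes and 6.05% of all windows. Among the 944 genes called lower that had a window, the E-box was found in 18.1%, the ETS-like motif in 27.4% and the YY1-like motif in 12.5%. The 3 motifs were searched on both strands and do not overlap in the printed bases. Taf1d, Ubtf, Znrd1 and Twistnb held none of the 3 in any window. These letter matches are descriptions of the windows, not sites of binding.

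The libraries held 4634963 to 7906589 counts assigned to genes, and 11092 genes passed the filter on low counts. Libraries were made by priming at the 3′ end of transcripts, so a count does not grow with transcript length and levels are compared below only between mice, never between genes. Values are CPM, counts scaled to a common library total by TMM (the trimmed mean method of edgeR), and a count of 3, the limit that a count of 0 allows, was worth 0.392 to 0.637 CPM. All 10 members passed the filter, and the least counted, Taf1a, had between 39 and 107 counts per mouse. Of the sorting markers, Kit had 38.6 ± 6.03 CPM in Vehicle mice and 42.8 ± 4.80 CPM in AG636 mice, and Itgam, which encodes CD11b, had 19.1 ± 7.45 and 44.2 ± 14.6 CPM (SD, n = 3), so that the transcript of the marker that the gate selected against was higher with AG636 (edgeR quasi-likelihood, Benjamini-Hochberg adjusted p = 0.0219). Of 12 listed markers of mature neutrophils and monocytes, 11 were tested, and 7 were higher with AG636 and 0 lower. The untested Cd14 went the other way, with 15 to 27 counts in Vehicle mice and 3 to 10 in AG636 mice. None of the 12 was at 0 throughout, and their summed level was 989 to 2359 CPM in Vehicle mice against 2810 to 5717 CPM in AG636 mice. Myeloid progenitor markers summed to 2809 to 5526 CPM and 2619 to 5983 CPM, with 2 of the 10 tested higher, and among erythroid markers 2 of 8 tested were lower (summed levels 1693 to 4772 and 1966 to 3274 CPM). Megakaryocyte markers summed to 774 to 1207 and 1045 to 1699 CPM, with 2 of 4 tested higher. The summed T and NK cell list (193 to 334 and 259 to 494 CPM) was nearly all Nkg7 (191 to 326 and 253 to 493 CPM). Cd3e, Cd3g, Cd4 and Cd8a had 0 to 8 counts per library, Cd3d 1 to 13, Klrb1c 1 to 10 and Trac 1 to 26. The stromal and endothelial list (105 to 178 and 152 to 245 CPM) was nearly all Pecam1 (103 to 177 and 151 to 245 CPM). Lepr and Cdh5 were at 0, and Cxcl12, Kdr and Col1a1 had 0 to 1, 0 to 6 and 0 to 9 counts per library. The B cell list summed to 38.5 to 73.8 CPM in Vehicle mice and 42.1 to 111 CPM in AG636 mice, with 0 of 3 tested called. Its tested genes Igkc, Ighm and Cd79b had 59 to 351, 44 to 144 and 30 to 93 counts per library, whereas Ms4a1 and Pax5 had 0 to 2. The part of these marker differences in the results below was not tested, and in sorted bulk cells fewer cells of a type and less RNA per cell cannot be told apart.

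Within the Pol I accessory machinery, 3 of the 10 genes were lower with AG636: Cd3eap and Taf1d, at 51.3% and 54.3% of the Vehicle level, and Ubtf at 69.4%. None was called higher at the same threshold, an adjusted p under 0.05 in the quasi-likelihood test of edgeR, adjusted after Benjamini and Hochberg over all genes tested. At an unadjusted p under 0.05 the counts were 4 lower and 0 higher in edgeR, in DESeq2 and in limma-voom. At that unadjusted threshold in edgeR, 2041 of all 11092 genes tested were lower and 2071 higher. After adjustment each of the 3 tools called 3 members lower and 0 higher. Over all genes tested, 11.0% were called lower and 10.3% higher, and the median log2 fold change was 0.03 against -0.37 for the members. When counts were scaled by library size alone, 2 members were called lower and 0 higher, and over all genes 913 were lower and 1483 higher, in place of 1222 and 1146. The groups did not overlap for 4 members that were lower (Cd3eap, Rrn3, Ubtf and Taf1d) and for 1 that was higher (Taf1b), where 20.6% of all tested genes did not overlap with AG636 lower and 20.5% with AG636 higher. The fold changes of the members ran from -0.96 to 0.37, with 7 of the 10 below 0 and 3 above it.

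**Figure D1:**
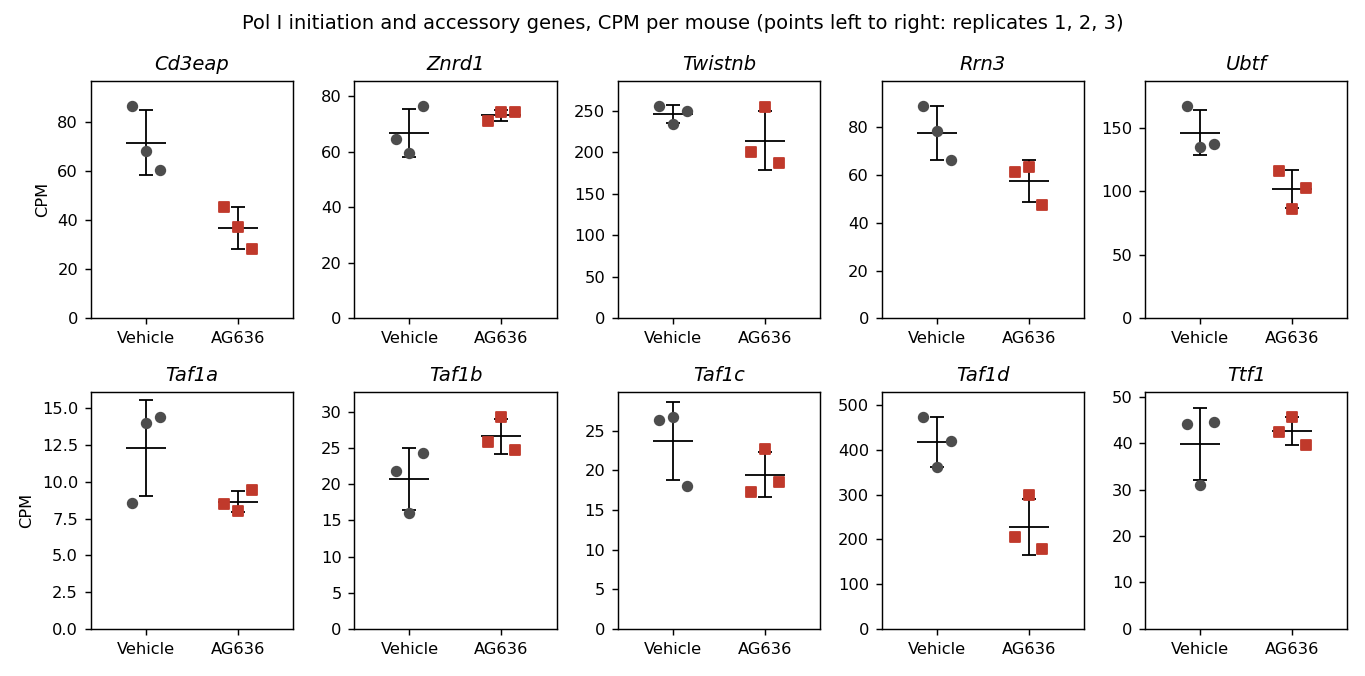
Each panel plots the CPM of 1 gene (vertical axis, from 0) in the 3 Vehicle mice (grey circles) and the 3 AG636 mice (red squares), with replicates 1, 2 and 3 from left to right, a long bar at the mean and whiskers of 1 SD. All AG636 points lie under all Vehicle points for Cd3eap, Rrn3, Ubtf and Taf1d, and above them for Taf1b.

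Of the 3 subunits that associate with the polymerase, Cd3eap was lower with AG636, and Znrd1 and Twistnb did not pass the test. Cd3eap (ENSMUSG00000047649, chromosome 7, 19356014 to 19359483, minus strand, mm10) encodes the subunit known as PAF49 in mouse, which forms a heterodimer with the product of Polr1e. It had 86.5, 68.1 and 60.6 CPM in Vehicle mice 1, 2 and 3, and 45.5, 37.1 and 28.1 CPM in AG636 mice 1, 2 and 3. The highest AG636 mouse was thus below the lowest Vehicle mouse. The means were 71.7 ± 13.3 and 36.9 ± 8.67 CPM (SD, n = 3), a log2 fold change of -0.96 with a standard error of 0.20 and a 95% interval from -1.41 to -0.52 (edgeR quasi-likelihood, Benjamini-Hochberg adjusted p = 0.0119). Its call held in all 15 alternative settings at the same threshold, with log2 fold changes from -1.14 to -0.80.

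Znrd1 (ENSMUSG00000036315, chromosome 17, 36954356 to 36958559, minus strand) encodes a small zinc-ribbon subunit that takes part in cleavage of the transcript by the polymerase. It had 64.5, 59.4 and 76.3 CPM in Vehicle mice 1, 2 and 3, and 70.9, 74.4 and 74.2 CPM in AG636 mice. The AG636 mice lay within the range of the Vehicle mice. Its log2 fold change was 0.14 with a 95% interval from -0.16 to 0.44 (edgeR quasi-likelihood, Benjamini-Hochberg adjusted p = 0.497), an interval that leaves out a decrease of the size seen for Cd3eap.

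Twistnb (ENSMUSG00000020561, chromosome 12, 33429635 to 33441392, plus strand) encodes the stalk subunit that contacts Rrn3 during initiation. It had 255, 234 and 249 CPM in Vehicle mice 1, 2 and 3, and 200.1, 254 and 187 CPM in AG636 mice. AG636 mice 1 and 3 were below every Vehicle mouse, and AG636 mouse 2 was inside the Vehicle range. The log2 fold change of -0.21, with a 95% interval from -0.50 to 0.09, did not pass the test (edgeR quasi-likelihood, Benjamini-Hochberg adjusted p = 0.296). Without AG636 replicate 2 it was -0.35 and still not past the threshold (adjusted p = 0.0735 by the same test).

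Ubtf and Rrn3 were both lower in every AG636 mouse than in any Vehicle mouse, but of these only Ubtf passed the adjusted test. Ubtf (ENSMUSG00000020923, chromosome 11, 102304560 to 102319742, minus strand) encodes an HMG-box protein that coats active rDNA and keeps it open. It had 167, 135 and 137 CPM in Vehicle mice 1, 2 and 3, and 116, 86.0 and 103 CPM in AG636 mice. Vehicle mouse 1 was the highest and AG636 mouse 2 the lowest, and the closest mice of the 2 groups were Vehicle mouse 2 and AG636 mouse 1. The means of 146 ± 17.8 and 102 ± 15.1 CPM (SD, n = 3) gave a log2 fold change of -0.53 with a standard error of 0.15 and a 95% interval from -0.85 to -0.20 (edgeR quasi-likelihood, Benjamini-Hochberg adjusted p = 0.0315). This call held in 10 of 15 alternative settings. It was lost without Vehicle replicate 1, Vehicle replicate 2, AG636 replicate 2 or AG636 replicate 3 (adjusted p = 0.0945, 0.0614, 0.0720 and 0.0884 by the same test) and with scaling by library size alone (0.0527), while the log2 fold change stayed between -0.64 and -0.42.

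Rrn3 (ENSMUSG00000022682, chromosome 16, 13780708 to 13814839, plus strand) had 88.8, 78.6 and 66.2 CPM in Vehicle mice 1, 2 and 3, and 61.4, 63.5 and 47.4 CPM in AG636 mice. The groups were adjacent, with Vehicle mouse 3 just above AG636 mouse 2, and AG636 mouse 3 was the lowest. The log2 fold change of -0.44 had a standard error of 0.16 and a 95% interval from -0.80 to -0.08. Its unadjusted p was 0.0214 and its Benjamini-Hochberg adjusted p 0.0770 (edgeR quasi-likelihood), so Rrn3 was not called. It passed with no filter on low counts (-0.47, adjusted p = 0.0361 by the same test) and without Vehicle replicate 3 (-0.57, adjusted p = 0.0402), and in 13 of the 15 alternatives it did not.

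Of the 4 listed factors of SL1, Taf1d alone passed the test. Taf1a and Taf1c had negative fold changes that did not pass the test, and Taf1b had a positive one that did not pass either. Taf1d (ENSMUSG00000031939, chromosome 9, 15306214 to 15316991, plus strand), the subunit known as TAFI41, had 473, 361 and 420.2 CPM in Vehicle mice 1, 2 and 3, and 205, 298 and 178 CPM in AG636 mice. AG636 mouse 2 was the closest to the Vehicle group and still below it. The means were 418 ± 56.4 and 227 ± 62.8 CPM (SD, n = 3), a log2 fold change of -0.88 with a standard error of 0.19 and a 95% interval from -1.30 to -0.46 (edgeR quasi-likelihood, Benjamini-Hochberg adjusted p = 0.0126). The call held in all 15 alternative settings at that threshold, with log2 fold changes from -1.13 to -0.73.

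Taf1a (ENSMUSG00000072258, chromosome 1, 183388981 to 183410198, plus strand) encodes the smallest of the long-known SL1 factors. It had 8.56, 14.0 and 14.4 CPM in Vehicle mice 1, 2 and 3, and 8.50, 8.04 and 9.44 CPM in AG636 mice. Vehicle mouse 1 fell within the AG636 range, and the other Vehicle mice stood above it. The log2 fold change was -0.51 with the widest interval among the members, from -1.08 to 0.07 (edgeR quasi-likelihood, Benjamini-Hochberg adjusted p = 0.182), at 353 counts over all 6 mice. Without Vehicle replicate 1 it was -0.73 (adjusted p = 0.0786 by the same test).

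Taf1b (ENSMUSG00000059669, chromosome 12, 24498359 to 24558539, plus strand) encodes the TFIIB-like member of SL1. It had 21.8, 16.1 and 24.4 CPM in Vehicle mice 1, 2 and 3, and 25.9, 29.3 and 24.7 CPM in AG636 mice. Every AG636 mouse was above every Vehicle mouse, although AG636 mouse 3 and Vehicle mouse 3 nearly met. Its fold change of 0.37 on the log2 scale had a 95% interval from -0.07 to 0.81 (edgeR quasi-likelihood, Benjamini-Hochberg adjusted p = 0.205).

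Taf1c (ENSMUSG00000031832, chromosome 8, 119597871 to 119605222, minus strand) encodes the large SL1 factor that contacts Rrn3. It had 26.4, 26.7 and 18.0 CPM in Vehicle mice 1, 2 and 3, and 17.2, 22.7 and 18.5 CPM in AG636 mice. Vehicle mouse 3 lay among the AG636 mice. A log2 fold change of -0.29 had a 95% interval from -0.76 to 0.18 (edgeR quasi-likelihood, Benjamini-Hochberg adjusted p = 0.348), and without Vehicle replicate 3 it was -0.47 (adjusted p = 0.123).

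Ttf1 (ENSMUSG00000026803, chromosome 2, 29060262 to 29087656, plus strand), the termination factor, had 44.2, 30.9 and 44.5 CPM in Vehicle mice 1, 2 and 3, and 42.5, 45.6 and 39.6 CPM in AG636 mice. Except for Vehicle mouse 2, which was low, the mice of both groups lay close together. The log2 fold change of 0.10 had a 95% interval from -0.29 to 0.49 (edgeR quasi-likelihood, Benjamini-Hochberg adjusted p = 0.715). Its sign rested on 1 mouse, since it was -0.07 without Vehicle replicate 2 (adjusted p = 0.785 by the same test).

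**Figure D2:**
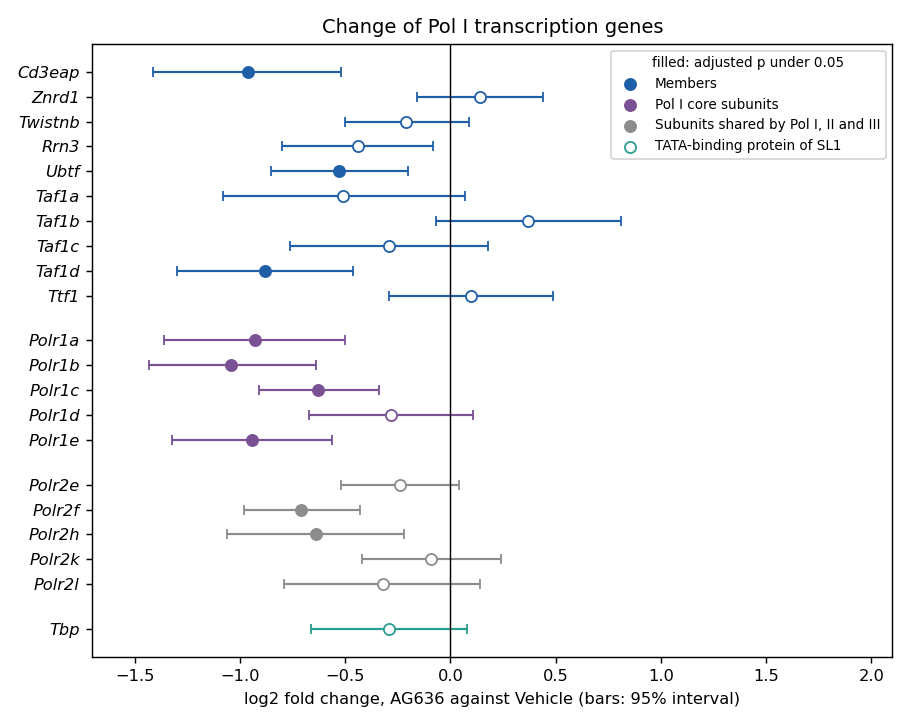
Points are the log2 fold changes of AG636 against Vehicle (horizontal axis) with 95% intervals for the 10 members, the Pol I core subunits, the subunits shared by Pol I, II and III, and Tbp. Filled points had an adjusted p under 0.05, which holds for Cd3eap, Ubtf and Taf1d among the members, for 4 of the 5 core subunits and for 2 of the 5 shared subunits.

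Exact two-sided permutation tests on the log2 CPM of single genes, in which 3 mice against 3 cannot give a p below 0.1, reached that smallest value for Cd3eap, Rrn3, Ubtf, Taf1b and Taf1d. The other 5 members had values of 0.2 to 0.8. Among the AG636 mice, mouse 3 had the lowest level of Cd3eap, Twistnb, Rrn3, Taf1d, Taf1b and Ttf1, whereas mouse 2 had the lowest level of Ubtf and Taf1a and mouse 1 that of Znrd1 and Taf1c. Vehicle mouse 1 had the highest level of Cd3eap, Twistnb, Rrn3, Ubtf and Taf1d.

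Partners were compared within each mouse as the log2 ratio of their counts, in 5 pairs chosen by known contact or shared complex. Cd3eap and its dimer partner Polr1e kept close to the same ratio on average, 1.0 ± 0.18 in Vehicle mice and 0.97 ± 0.50 in AG636 mice (SD, n = 3), a difference of -0.03 (exact permutation p = 0.80, and 0.90 adjusted over the 5 pairs). The AG636 mice spread more than the Vehicle mice, from 0.53 to 1.51. Among the 5 pairs the largest difference was that of Znrd1 against Polr1b, the second largest subunit of the core. Its log2 ratio was 0.09, 0.32 and 0.49 in Vehicle mice and 1.56, 1.22 and 1.68 in AG636 mice, with no overlap and a difference of 1.19, at the smallest exact permutation p of 0.10 (0.50 adjusted over the 5 pairs). In the fit across all genes Znrd1 stood at 109.9% of its Vehicle level and Polr1b at 48.7%. For Twistnb over Rrn3, Ubtf over Rrn3 and Taf1b over Taf1c the differences were 0.22, -0.09 and 0.65 (exact permutation p = 0.20, 0.90 and 0.30, or 0.50, 0.90 and 0.50 adjusted), and the groups overlapped in each of these pairs.

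The other genes of the pathway came from fixed lists and are described by counts beside the background of 11.0% lower and 10.3% higher. Of the 5 core subunits, 4 were lower, with log2 fold changes of -0.93 for Polr1a, -1.04 for Polr1b, -0.63 for Polr1c and -0.94 for Polr1e, against -0.28 for Polr1d, which did not pass (list median -0.93). Cd3eap and Taf1d lay within the range of these 4, and Ubtf, Rrn3 and the other members lay above it. Of the 5 subunits that Pol I shares with Pol II and Pol III, Polr2f (-0.71) and Polr2h (-0.64) were lower, while Polr2e, Polr2k and Polr2l had -0.24, -0.09 and -0.32. Tbp, the remaining part of SL1, had 25.5, 26.0 and 29.3 CPM in Vehicle mice and 23.2, 19.8 and 23.0 CPM in AG636 mice. These groups did not overlap, but the log2 fold change of -0.29 did not pass (edgeR quasi-likelihood, Benjamini-Hochberg adjusted p = 0.233). With it, 1 of the 5 proteins of SL1 came from a gene that was called.

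The t-UTP proteins, which link rDNA transcription with early processing of the precursor, were lower in 6 of 6 genes, from -1.13 for Heatr1 to -0.67 for Nol11 and Utp15, with Utp4, Wdr43 and Wdr75 between (median -0.87). Among 17 tested regulators of rDNA transcription, 7 were lower and 0 higher (median -0.22). The 7 were the nucleolar proteins Mybbp1a (-1.04, the lowest), Nolc1, Npm1, Ncl, Ddx21 and Tcof1, together with the remodeler Smarca5, and the highest value was 0.23 for Ercc6, which did not pass. Tcof1, whose product treacle works with Ubtf at the rDNA, had a log2 fold change of -0.57, next to -0.53 for Ubtf. For the other polymerases, the Pol III list held 16 genes, which are initiation factors apart from Maf1, a repressor of Pol III (0.41, not called). Of these 16, 0 were lower and 1 was higher (Snapc5, 0.64; lowest Snapc4, -0.69, not called), and 4 of 30 tested Pol II general factors were lower and 0 higher (Gtf2h3 at -1.05 the lowest, Taf12, Gtf2h4 and Gtf2f1; highest Taf8, 0.30, not called). Their medians were -0.10 and -0.21, against -0.37 for the 10 members, and differences between the lists were not tested. At an unadjusted p under 0.05 in edgeR, 3 of the 16 genes of the Pol III list were lower and 2 higher (Snapc5 and Maf1). Over all 11092 genes tested, 2041 were lower and 2071 higher at that threshold. After adjustment Snapc4 was called lower in DESeq2 and in limma-voom and without AG636 replicate 2. With no filter on low counts, 1 gene of the Pol III list was likewise called lower. The Pol II factors called lower numbered 5 with no filter or without Vehicle replicate 3, and 6 without AG636 replicate 2. Other settings took calls from the lists. At an adjusted p under 0.01 in edgeR, 2 core subunits, 2 t-UTP genes, 4 regulators, 2 Pol II factors and 1 shared subunit were called lower. Without AG636 replicate 3, at the threshold of 0.05, 2 core subunits and 3 t-UTP genes were called lower. The t-UTP genes called lower numbered 4 without AG636 replicate 1 and 5 without Vehicle replicate 2. The regulators called lower numbered 4 without AG636 replicate 1 or 3, the Pol II factors 2 without Vehicle replicate 1 or AG636 replicate 1 or 3, and the shared subunits 1 without Vehicle replicate 1 or 3 or AG636 replicate 1 or 3. Polr2h, whose call those mice decided, was also not called in limma-voom, with library size alone or with a replicate block (adjusted p = 0.0537, 0.0626 and 0.0687). Snapc5 was not called without any one of Vehicle replicates 1, 2 and 3 or AG636 replicates 1 and 3.

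**Figure D3:**
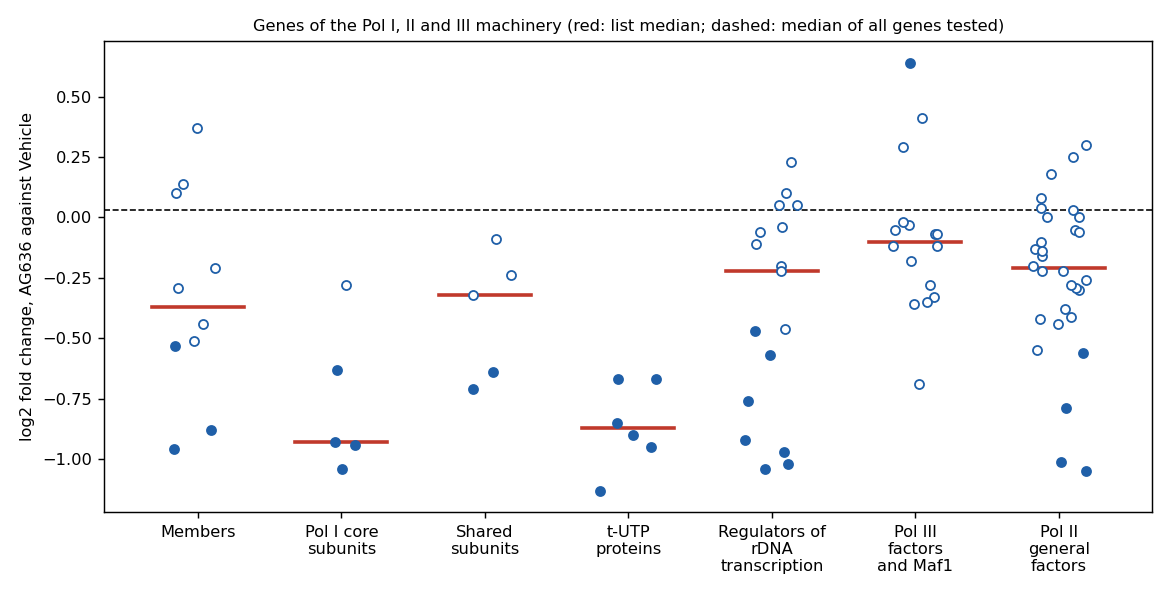
Points are log2 fold changes of AG636 against Vehicle (vertical axis) for each tested gene of the members and of 6 related lists, spread sideways only for legibility, with filled points at an adjusted p under 0.05. Red bars mark list medians, -0.37 for the members and -0.93 for the core subunits, and the dashed line marks the median of all tested genes, 0.03.

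The mean centred log2 CPM of the 10 members was 0.24, 0.07 and 0.16 in Vehicle mice 1, 2 and 3, and -0.14, -0.05 and -0.28 in AG636 mice. Among 8473 other genes with a mean of at least 10 CPM, the 5 whose pattern over the 6 mice was most like this mean were Apbb1ip, Ahcy, Ube2k, Morf4l2 and Orc4, with root mean square differences of 0.0168, 0.0210, 0.0225, 0.0277 and 0.0395 on the log2 scale. Their log2 fold changes were small, from -0.36 for Morf4l2 to -0.29 for Apbb1ip and Ube2k. Of these 5, Morf4l2 alone was called (edgeR quasi-likelihood, Benjamini-Hochberg adjusted p = 0.0467), a call that was lost without each of the 6 mice in turn.

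Some members share exonic bases with a gene on the opposite strand, and whether reads were counted by strand is not given in the sources used here, so that reads in those bases cannot be assigned with certainty. Cd3eap shares 106 exonic bases with the repair gene Ercc1, 95 of them among its last 500, and Ercc1 had 664 counts in all with a log2 fold change of 0.06 against 1839 counts and -0.96 for Cd3eap. Taf1d shares 77 bases with Cep295, all among its last 500, and 235 bases with 4931406C07Rik, none of them there. Cep295 and 4931406C07Rik had 1703 and 996 counts against 10776 for Taf1d, with log2 fold changes of -0.08 and 0.46, neither past the threshold. Taf1c shares 584 bases with Dnaaf1, and these cover all of its last 500. Dnaaf1 had 2 counts against 727 for Taf1c. How reads lying in both genes were counted is not given, so these counts cannot tell whether Dnaaf1 was expressed or Taf1c fully counted. None of the 3 tested genes that overlap Cd3eap or Taf1d was called. Small RNA genes within the Taf1d exons on the same strand, 10 in all, had 0 counts. Of these, Gm22579 and Gm23455 share 133 and 97 bases with the last 500 of Taf1d, and the others share 0 there. How reads lying in both Taf1d and such a gene were counted is not given, so these counts cannot tell whether they were expressed.

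**Figure D4:**
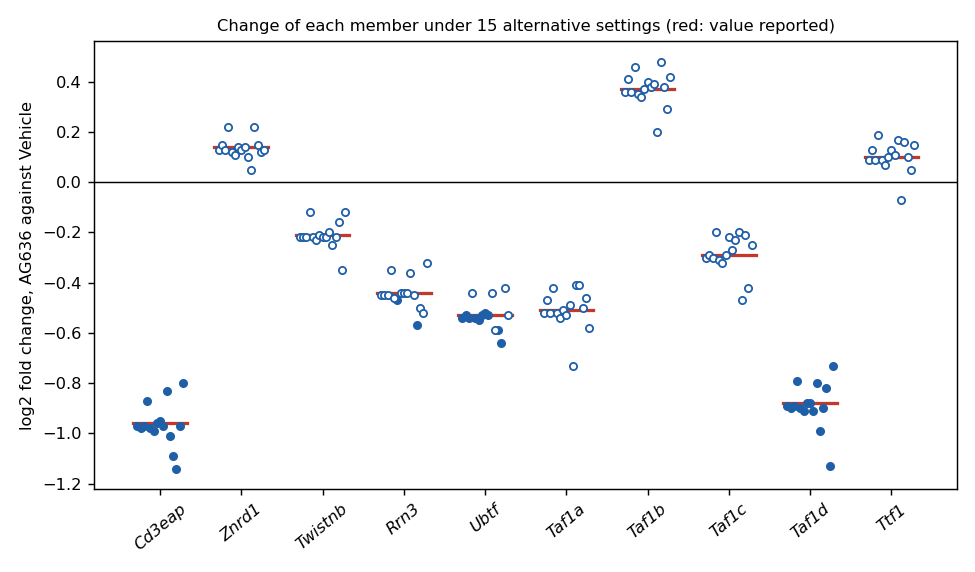
For each member the red bar is the log2 fold change reported (vertical axis) and the 15 points are its values under alternative normalizations, filters, tools and with each mouse left out, filled where the adjusted p was under 0.05. Points are filled throughout for Cd3eap and Taf1d, in 10 of 15 settings for Ubtf and in 2 for Rrn3, and Ttf1 falls below 0 in 1 setting.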

How the data were processed

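The authors deposited a table of raw counts per gene for 6 libraries, each from 1 mouse. Per the labels, libraries were made with a QuantSeq 3′ kit, and the submitters' processing notes name cutadapt 1.9.1, HISAT2 2.0.4, GRCm38 (mm10) and featureCounts of Subread 1.5.0-p3. The study's methods name the same tools and build but other versions of cutadapt and Subread, so which versions made the counts is open. The annotation release and strand setting are not given in the sources used here. Symbols came from GENCODE, whose genes matched 54723 of 54838 identifiers, 98.7% of them with the same start and end. Groups and replicate numbers came from the labels, and 0 columns of per-sample values were unused.

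Counts were analysed with edgeR 4.0.16 in R 4.3.3: genes were filtered with filterByExpr (minimum count 10, minimum total 15), scaled by TMM and tested with the quasi-likelihood test on group alone, with Benjamini-Hochberg adjustment and a threshold of 0.05. The study used limma, which was run as an alternative (limma-voom 3.58.1), as was DESeq2 1.42.0. CPM use the scaled totals, and the standard error is the fold change over the square root of F. The p-values of the fits weigh the difference between groups against the spread between mice, and the permutation p-values weigh it against regroupings of the same 6 mice. Replicate counts differed by more than sampling noise (chi-square per degree of freedom 6.22 to 14.6), so none was merged, and floors of 3 counts cover counting error only. Pair ratios used counts plus 0.5.

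All 10 members are reported. From each other list the text names the genes called and the lowest and highest, from the core and shared subunits and Tbp every gene, and the 5 nearest patterns. The members and lists were chosen with earlier results of these data known. The model scripts were tested on simulated data. Alternatives covered tools, scaling, filters, thinning to the smallest total, a replicate block, a stricter threshold and leaving out each mouse.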

Additional observations from a re-analysis of the deposited data

How the results depend on the processing

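Standard errors had a median of 0.18 (log2) for the members and 0.20 over all genes at 3 mice per group, which limits what can be told from the spread between mice. At an adjusted p under 0.01 in edgeR's quasi-likelihood test, 0 members were called lower and 556 genes in all, against 2368 at 0.05. At an unadjusted p under 0.05 in the same test, 4 members were lower, beside 2041 of all 11092 genes tested. Leaving out 1 mouse at a time gave 2 to 4 members called lower, and 851 (without AG636 replicate 3) to 2311 (without Vehicle replicate 3) genes called in all; the members called lower numbered 2 without Vehicle replicate 1 or 2 or AG636 replicate 2 or 3, and 4 without Vehicle replicate 3. The members called higher remained at 0 in every setting. Without a filter on low counts 4 members were lower, and with scaling by library size alone 2 were. The median of the members stayed between -0.44 and -0.27. The fold change of Ttf1, which was not called, ranged from -0.07 (without Vehicle replicate 2) to 0.17 when 1 mouse was left out; the other 9 members kept their sign in all 15 alternatives.

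Mice of the same number in the 2 groups were not treated as paired. Their deviations from the group means correlated at -0.0573, -0.178 and 0.224, and those of mice of unlike number at -0.38 to 0.364. At 3 mice per group these values cannot settle whether the mice were handled in pairs. A replicate block left 3 members called lower and 1960 genes called in all, in place of 2368.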
